A study of Mus musculus with 17 samples.

Results

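The microRNAs (miRs) mmu-miR-221 and mmu-miR-222, below miR-221 and miR-222, are a pair that share a seed and lie side by side on the X chromosome, and here their levels were followed in mouse kidney over 8 days between day 1 and day 30 after ischemia reperfusion injury (IRI) or sham surgery. The members were the 2 array probes that carry these names, out of 569 mouse miRs printed. Both passed the detection filter, a normalized intensity of 200 or more in at least 1 sample, together with 160 other miRs, and both were above background in all 17 samples. The study compared kidneys of C57/BL6 mice aged 10 to 12 weeks that were left untreated (naive, 1 sample), had sham surgery (sham, 8 samples) or had 30 min of unilateral warm ischemia (IRI, 8 samples), and each sample was a pool from 3 mice. No other allele or agent was named for any group. The labels give the mice as female and the paper's methods as male, so their sex is not settled. The IRI and sham pools of a day were hybridised on the same array, IRI in Cy3 and sham in Cy5 on all 8 arrays, and the naive pool had an array of its own in Cy3. The dyes were never exchanged, so a bias of a probe towards one dye and an effect of IRI on the mean IRI/sham ratio cannot be told apart. Each arm had 1 pool per day, and the days therefore stand in for replicates.

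A miR guides a silencing complex to messenger RNAs that pair with its seed, the bases from position 2 to position 8. miR-221 and miR-222 are cut from hairpins of a common primary transcript and, with the same seed, are predicted to bind overlapping sets of messengers. Known targets include Cdkn1b, which encodes the cell cycle inhibitor p27Kip1, and Kit, a receptor tyrosine kinase. Both miRs are best known from the vessel wall, where they restrain Kit in endothelial cells and favour growth of smooth muscle cells, and from proliferating tumour cells.

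The probes were designed against the following mature miRs, shown because the seed, in capitals, is what the partners have in common.

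miR-221: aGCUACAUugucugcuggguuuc

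miR-222: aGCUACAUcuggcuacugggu

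The first 8 bases were identical, and 11 of the 21 positions of the shorter target held the same base when both were aligned at their start. The edit distance was 6, and the longest further stretch in common had 6 bases. No other of the 569 miRs on the array carried the seed GCUACAU. The nearest other target was at an edit distance of 8 for each member, miR-23a for miR-221 and miR-216a for miR-222. Whether a probe of one member captures some of the other was not tested.

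The hairpins are given from RefSeq (GRCm38.p6), with the arm that the array measures in capitals. Mir221 lies at chrX:19146294-19146388 and Mir222 at chrX:19146893-19146971, both on the minus strand and 504 bases apart, with no other gene between them in the annotation. miR-221 corresponds to the entry miR-221-3p at chrX:19146307-19146329, with the same bases. miR-222 corresponds to miR-222-3p at chrX:19146901-19146923, whose entry runs 2 bases further than the array's target.

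Mir221: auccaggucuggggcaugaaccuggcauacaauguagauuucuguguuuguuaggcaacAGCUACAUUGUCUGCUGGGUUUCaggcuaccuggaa

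Mir222: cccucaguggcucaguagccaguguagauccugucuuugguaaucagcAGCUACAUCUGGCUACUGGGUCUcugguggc

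In both hairpins the measured arm is the one nearer the 3′ end. The opposite arms were not on the array under these names.

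Each member was printed on 6 spots per array. In the IRI pools the mean of the spots was between 644 and 1931 units above the empty spots for miR-221 and between 1089 and 1521 for miR-222. In the sham pools it was between 109 and 733 above the empty spots for miR-221 and between 327 and 777 for miR-222. The median of the 250 empty spots was between 186 and 516 in IRI and between 33.0 and 43.9 in sham, so the Cy3 channel carried the higher background. The coefficient of variation over the 6 spots was at most 24.1%. The widest spread was on the array of day 1, where adjacent spots of the members at the same corner of the print were low in both channels. There, 1 spot read 61.8% (IRI) and 52.5% (sham) of the median of the other spots for miR-221, and 54.1% (IRI) and 46.3% (sham) for miR-222. With the median of the spots in place of the mean, the mean ratios, slopes, difference, Pearson correlations and mean levels over naive of the members kept their direction and, where tested, their side of the threshold. The naive pool was the dimmest, with 107 units over an empty median of 511 for miR-221 and 138 for miR-222.

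**Figure D1:**
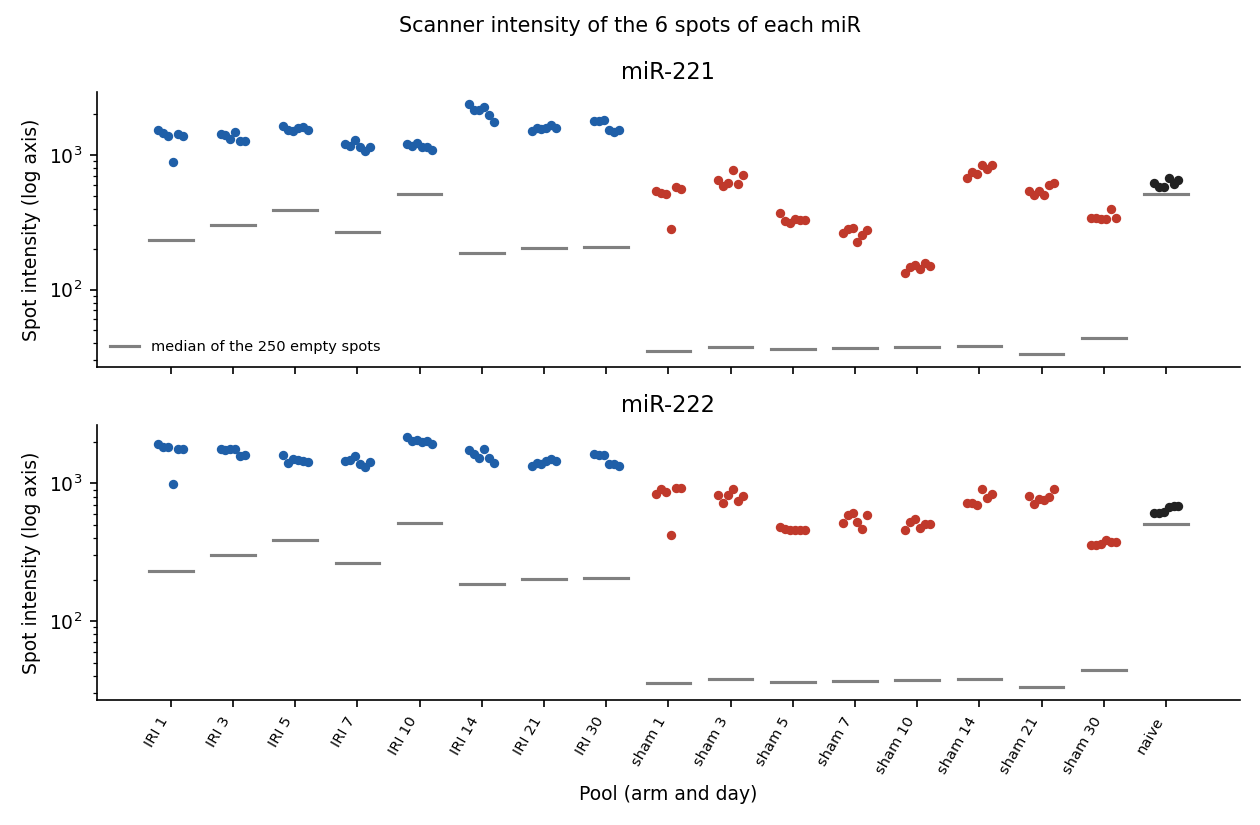
Scanner intensity (log axis, arbitrary units, no background correction) of the 6 spots of miR-221 (top) and miR-222 (bottom) in each of the 17 pools, named by arm and day, with IRI in blue, sham in red and naive in black. Grey bars are the median of the 250 empty spots of that channel. All spots lie above their grey bar, the naive pool by the least, and 1 spot of each member is low in both channels of day 1.

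The level of miR-221 after IRI, in units of normalized intensity, was 652 (day 1), 633 (day 3), 774 (day 5), 609 (day 7), 427 (day 10), 761 (day 14), 661 (day 21) and 932 (day 30). In the sham controls it was 631, 650, 436, 510, 462, 716, 709 and 810 in the same order of days, and in the naive pool 444. The lowest IRI pool was day 10 and the highest day 30, the lowest sham pools were days 5 and 10 and the highest day 30, and the ranges of the arms overlapped.

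The normalized intensity of miR-222 after IRI was 844 (day 1), 809 (day 3), 815 (day 5), 655 (day 7), 921 (day 10), 565 (day 14), 568 (day 21) and 759 (day 30). In the sham controls it was 1009, 739, 668, 832, 1328, 729, 960 and 786 in the same order of days, and in the naive pool 923. Day 10, which held the lowest miR-221 after IRI, held the highest miR-222 in both arms, and here too the ranges of the arms overlapped. The SD over the days was 0.33 (log2, n = 8) for miR-221 in IRI and 0.32 in sham, and 0.27 and 0.32 for miR-222, against a median SD of 0.34 (IRI) and 0.35 (sham) over the 162 detected miRs.

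**Figure D2:**
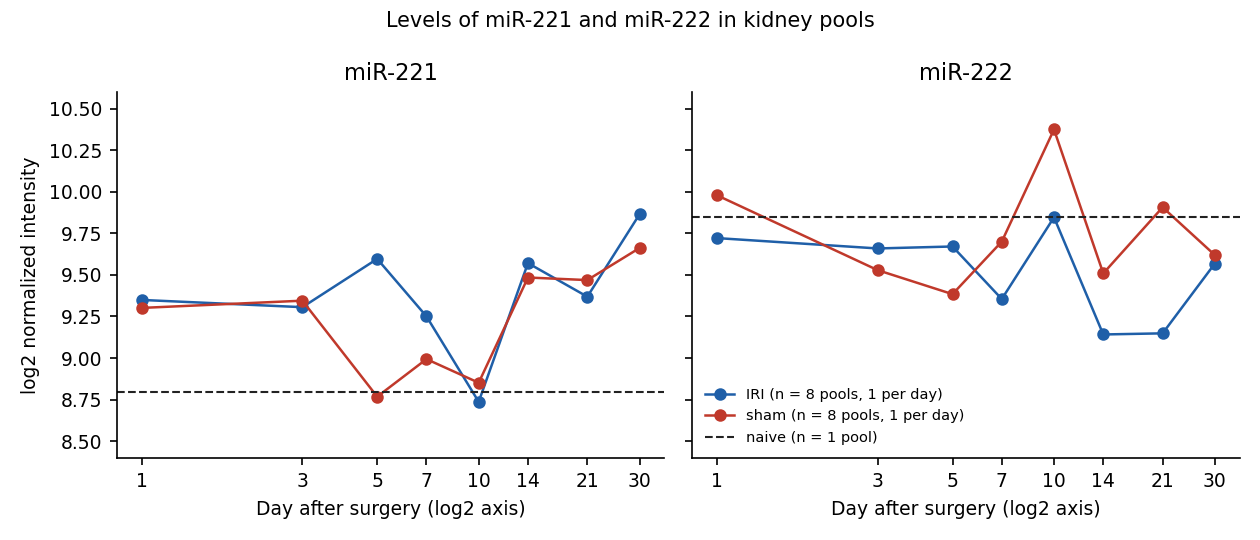
Log2 normalized intensity of miR-221 (left) and miR-222 (right) against the day after surgery (log2 axis), with 1 pool per point, IRI in blue and sham in red, and the naive pool as a dashed line. The arms cross for both miRs, and on day 10 miR-221 is at its lowest after IRI while miR-222 is at its highest in both arms.

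On the array of each day the log2 IRI/sham ratio of miR-221 was 0.05 (day 1), -0.04 (day 3), 0.83 (day 5), 0.26 (day 7), -0.11 (day 10), 0.09 (day 14), -0.10 (day 21) and 0.20 (day 30). It was above 0 on 5 of 8 days, and day 5, when sham miR-221 was at its lowest, stood clear of all others. The scanner file of day 5 names its channels only A and B, and they were assigned by their order on the other arrays and by the authors' processed values, whose r over miRs was 0.998 to 0.999 with the assigned channel and 0.941 to 0.953 with the other. miR-21, higher after IRI on every array, had the same direction on day 5. The mean ratio was 0.15 (SE 0.11, n = 8 arrays, 95% interval -0.10 to 0.39), a fold of 1.11, and it did not pass the test against 0 (limma, adjusted p = 0.336). The exact sign-flip test over the arrays gave p = 0.211 (two-sided).

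The log2 IRI/sham ratio of miR-222 was -0.26 (day 1), 0.13 (day 3), 0.29 (day 5), -0.35 (day 7), -0.53 (day 10), -0.37 (day 14), -0.76 (day 21) and -0.05 (day 30). It was below 0 on 6 of 8 days, with its highest value on day 5, as for miR-221, and its lowest on day 21. The mean ratio was -0.24 (SE 0.12, n = 8 arrays, 95% interval -0.51 to 0.03), a fold of 0.849, with a limma adjusted p of 0.153 and an exact sign-flip p of 0.102 (two-sided). By this test 36.4% of the 162 detected miRs passed, 30 higher (18.5%) and 29 lower (17.9%) after IRI, so that the members were among the majority that did not. With median scaling 30 passed as higher and 9 as lower. A mean change of either member up to the ends of these intervals cannot be told from none with 8 pools per arm. Under the alternatives the means ran from 0.003 (plain background subtraction) to 0.39 (median scaling) for miR-221 and from -0.41 to -0.02 for miR-222 under the same settings, and neither passed under any of the 18 run.

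The spots of an array gave a much smaller error than the days did. The SD of the log2 ratio over the 6 spots was between 0.05 and 0.25, and the ratio lay beyond 2 standard errors of the spots on 5 of 8 days for miR-221 and on 7 of 8 for miR-222. These errors cover the hybridised pair of pools only, and not the spread between pools of the same day, which was not measured.

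**Figure D3:**
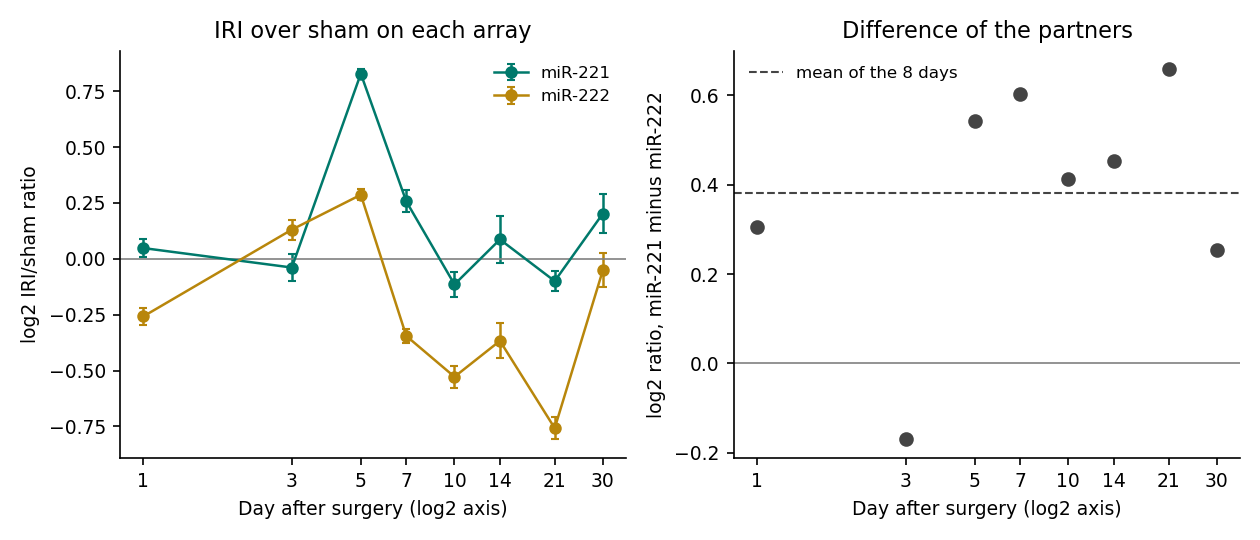
Left, log2 IRI/sham ratio of miR-221 (green) and miR-222 (ochre) on the array of each day (log2 day axis), with bars of 1 standard error over the 6 spots. Right, the difference of these ratios, miR-221 minus miR-222, with the mean of the 8 days dashed. The difference is above 0 on 7 of 8 days, and day 3 is the exception.

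The IRI/sham ratio of miR-221 was higher than that of miR-222 on 7 of 8 days. The difference, miR-221 minus miR-222, was 0.31 (day 1), -0.17 (day 3), 0.54 (day 5), 0.60 (day 7), 0.41 (day 10), 0.45 (day 14), 0.66 (day 21) and 0.25 (day 30). Its mean was 0.38 (log2, SD 0.26, SE 0.09, n = 8), or 1.30-fold, with an exact sign-flip p of 0.0156, where the smallest p that 8 arrays can give is 0.0078. The mean difference thus passed the test against 0, given the spread of the differences over the days. A difference of this kind was common on these arrays, since 46.0% of all 13041 pairs of detected miRs had a p under 0.05 by the same test and 59.2% differed in mean ratio by at least as much. An unequal pull of the dyes at the probes and an unequal response of the partners cannot be told apart. The difference had no slope over log2(day) that passed (0.06 per doubling of the day, SE 0.06, exact permutation p = 0.374).

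No trend of either member over the 30 days passed the test. A slope here is the change in log2 for each doubling of the day, tested with limma over the 8 pools of an arm or the 8 ratios. After IRI the slope of the level was 0.05 (SE 0.08, adjusted p = 0.724) for miR-221 and -0.08 (SE 0.06, adjusted p = 0.421) for miR-222, where 8.64% of the detected miRs passed, 4.32% upwards and 4.32% downwards. In the sham controls the slope was 0.07 (SE 0.07, limma adjusted p = 0.909) for miR-221 and -0.01 (SE 0.08, limma adjusted p = 0.995) for miR-222, where 1.23% passed. The IRI/sham ratio had a slope of -0.02 (SE 0.08, limma adjusted p = 0.937) for miR-221 and of -0.08 (SE 0.08, limma adjusted p = 0.617) for miR-222, where 2.47% passed. Several of these slopes lay close enough to 0 that another scaling or a day left out turned their sign. Without day 1 the slope of the ratio of miR-222 was -0.18 and that of sham miR-221 was 0.18, and without day 30 they were -0.14 and 0.02. None of these passed.

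Against the naive pool, miR-221 was higher in 7 of 8 IRI pools and in 7 of 8 sham pools, and the day 10 IRI and day 5 sham pools were the exceptions. The mean difference from naive was 0.59 (log2, SD 0.33, n = 8) in IRI and 0.44 (SD 0.32, n = 8) in sham. It was 0.96 and 0.87 in the authors' processed values and 2.74 and 2.35 with each channel scaled to its median. miR-222 lay below naive in all 8 IRI pools, on day 10 by only 0.004, and in 5 of 8 sham pools, with mean differences of -0.34 (SD 0.27, n = 8) and -0.10 (SD 0.32, n = 8). With a single naive pool no test was made. The levels relative to naive also rest on the scaling of the dimmest array. In the authors' processed values all 16 pools had more miR-221 than naive, and miR-222 was above naive in 4 of 8 IRI and in 6 of 8 sham pools. With the median scaling, the mean difference for miR-222 turned to 2.69 in IRI and 2.71 in sham.

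The agreement of the partners over time was looked at in the ratio and in the level of each arm, which makes 3 correlations. The log2 IRI/sham ratios of miR-221 and miR-222 had Pearson's r = 0.68 and Spearman's rho = 0.62 over the 8 arrays, with exact permutation p of 0.0554 and 0.115 and, after Benjamini-Hochberg adjustment over the 3, of 0.166 and 0.345. Without days 5 and 7, the farthest from the median of miR-221, r was 0.52 (n = 6). The relation therefore did not pass the threshold. It passed in the authors' processed values (r = 0.83, adjusted exact permutation p = 0.00863), with median scaling (r = 0.89, adjusted exact permutation p = 0.00975) and without day 3 (r = 0.90, adjusted exact permutation p = 0.0149), and was at its lowest without day 5 (r = 0.37). Among all pairs of detected miRs, in the main values only, the median r of the ratio was 0.01, and 7.00% of pairs reached the r of the members.

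The levels themselves showed no relation that passed. Over the 8 IRI pools r was -0.35 and rho -0.36 (adjusted exact permutation p = 0.612 and 0.584), and r was -0.10 without days 10 and 30. Over the 8 sham pools r was -0.20 and rho -0.12 (adjusted exact permutation p = 0.649 and 0.793), and r was -0.18 without days 5 and 10. The sign was not stable in either arm, since without day 10 alone r was 0.08 in IRI and 0.32 in sham. With median scaling, day 10 included, r was 0.91 in IRI (adjusted exact permutation p = 0.0351) and 0.72 in sham (adjusted exact permutation p = 0.0425). The r of all other pairs of miRs is not given for this scaling, so how common such values are there cannot be said. Ranked among the 161 other detected miRs by r with miR-221, miR-222 was at place 12 for the ratio, 124 for the IRI level and 93 for the sham level. miR-221 took place 6, 108 and 103 in the same order when ranked by r with miR-222.

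**Figure D4:**
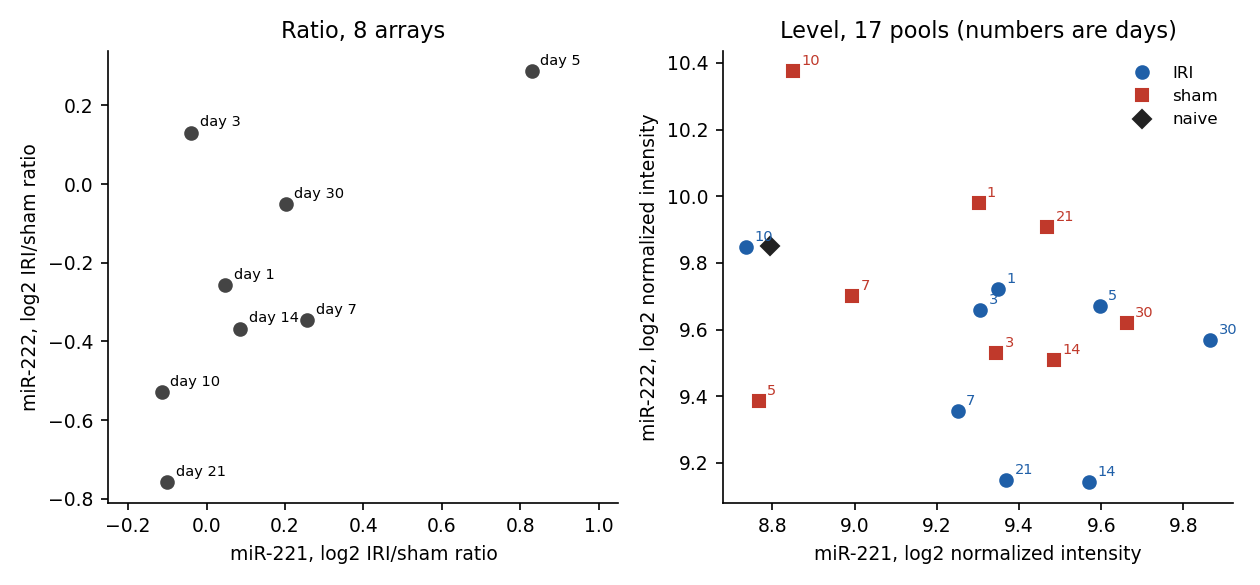
Left, log2 IRI/sham ratio of miR-222 against that of miR-221, with 1 point per array. Right, log2 normalized intensity of miR-222 against miR-221 in the 8 IRI pools (blue circles), the 8 sham pools (red squares) and the naive pool (black diamond), with the day beside each point. The ratios have r = 0.68, short of the threshold, with day 5 at the upper right. The levels have r of -0.35 (IRI) and -0.20 (sham), and both day 10 pools lie at the upper left.

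The gap between the probes, the log2 level of miR-222 minus that of miR-221, was compared between the arms of a day. It ranged from -0.43 on day 14 to 1.11 on day 10 after IRI, and from -0.04 on day 30 to 1.52 on day 10 in sham, so that the widest gap fell on the same array in both arms. Over the 8 arrays the gap of the IRI pool and that of the sham pool had r = 0.86 and rho = 0.79, which are given as a description. The levels of both arms are rebuilt from the mean of the channels of their array, so that they share a part of their values and tend to correlate by construction, and a permutation p, which takes them as independent, does not apply. Over all 13041 pairs of detected miRs the r of such a gap between the arms had a median of 0.32, and 5.60% of pairs reached the r of the members. Without days 10 and 14 the r of the gap was 0.44, and without day 10 alone it was 0.60, so that its size rests on these days. The level of 1 member in IRI against its level in sham gave r = 0.56 for miR-221 and r = 0.33 for miR-222. Over all detected miRs the median r of the level between the arms was 0.37, and 121 of 162 were above 0. The pools of a day share an array and a harvest day, and these cannot be told apart.

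The detected miRs whose IRI/sham ratio ran most like that of a member, by Pearson's r over the 8 arrays, are given as a description. For miR-221 they were miR-155 (r = 0.97), miR-200a (0.84), miR-674 (0.81), miR-106b (0.80) and miR-378 (0.80). Day 5, the highest ratio of miR-221, carried much of this, since without it r was 0.84 for miR-155, 0.45 for miR-200a, 0.19 for miR-674, 0.51 for miR-106b and 0.55 for miR-378. miR-155, known from activated leukocytes, had a mean log2 ratio of 1.52 (adjusted p = 0.000887, limma, higher on 8 of 8 days), far above the 0.15 of miR-221, and its highest ratio was 2.84. Its target shares no seed with the members and is shown for that contrast, with the seed in capitals.

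miR-155: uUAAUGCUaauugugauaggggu

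Its edit distance to miR-221 was 12. miR-200a, an epithelial miR, had a mean log2 ratio of -1.11 (limma adjusted p = 0.0231), opposite in sign to that of miR-221, and did not pass with median scaling (-1.01, limma adjusted p = 0.0600).

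For miR-222 the most alike were miR-484 (r = 0.81), miR-103 (0.69), miR-185 (0.68), miR-107 (0.68) and miR-532-5p (0.68). The first 4 passed the test as lower after IRI, with mean log2 ratios between -0.61 (miR-107) and -0.27 (miR-484) and limma adjusted p between 0.016 and 0.0231. None of these 4 passed with median scaling, where miR-484 turned to 0.06 (limma adjusted p = 0.754) and the others lay between -0.45 and -0.38 (limma adjusted p between 0.197 and 0.211). miR-532-5p was at -0.05 (limma adjusted p = 0.618). Without day 5 the r with miR-222 was 0.78 for miR-484 and between 0.44 and 0.50 for the other four. By the IRI level over the 8 IRI pools, the most alike to miR-221 were miR-130a (r = 0.90), miR-98 (0.83), miR-99a (0.82), miR-872 (0.82) and miR-375 (0.80), and to miR-222 miR-185 (0.83), miR-30c-2* (0.82), miR-455 (0.82), miR-103 (0.80) and miR-744 (0.79). Without day 10, the lowest IRI pool of miR-221, r with miR-221 was 0.85 for miR-130a, 0.62 for miR-375, 0.48 for miR-98, 0.42 for miR-99a and 0.37 for miR-872, whereas the lowest r with miR-222 among its 5, with any 1 day left out, was 0.71. miR-103 and miR-185 stood on both lists of miR-222. No miR stood on a list of each partner, which says little, since each list holds only 5 of 161 other miRs.

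The members were set beside other miRs of the vessel wall. miR-126-3p, the classic miR of endothelium, had a mean log2 IRI/sham ratio of -0.03 (SE 0.12, limma adjusted p = 0.841) and was higher on 4 of 8 days. miR-143 (-0.13, SE 0.14, limma adjusted p = 0.488) and miR-145 (-0.13, SE 0.26, limma adjusted p = 0.690), both of smooth muscle, were likewise higher on 4 of 8 days. The ratio of miR-145 was 1.22 on day 1 and -1.45 on day 30 (slope -0.43, limma adjusted p = 0.0727). Its level in sham rose (slope 0.63, limma adjusted p = 0.0213), where 1.23% of the detected miRs passed. Neither slope passed for miR-126-3p or miR-143. None of the 5 vascular miRs, the members included, passed the test of the mean ratio, against 36.4% of all detected miRs. miR-21, which is raised in injured and proliferating tissue, was higher on all 8 days with a mean log2 ratio of 2.51 (SE 0.19, limma adjusted p = 5.78e-05).

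**Figure D5:**
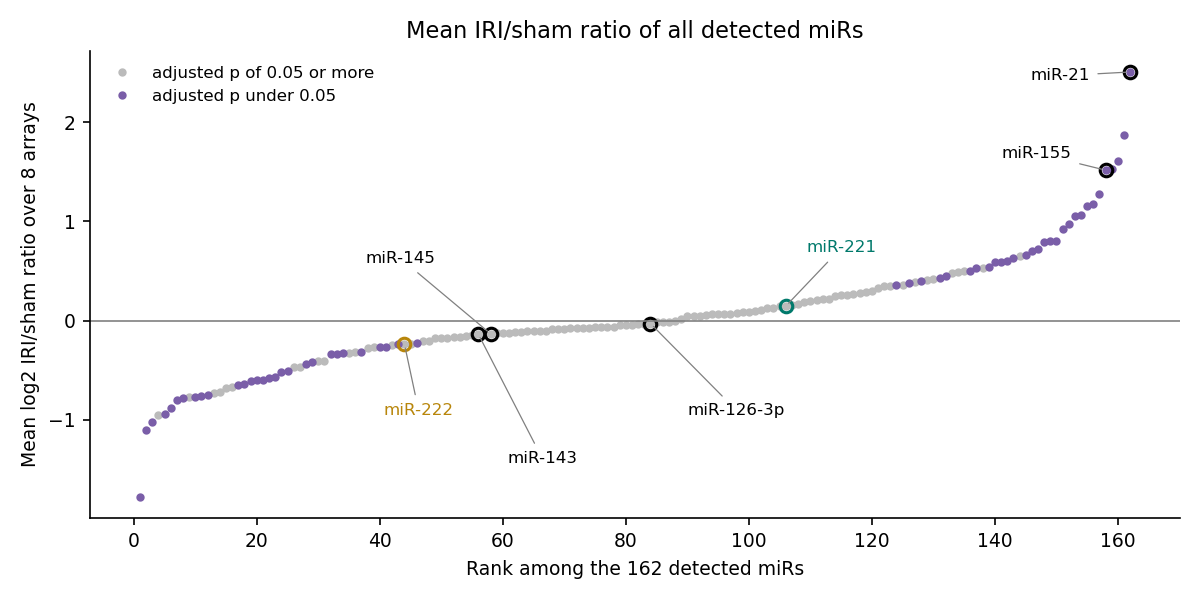
Mean log2 IRI/sham ratio over the 8 arrays of the 162 detected miRs, ordered from lowest to highest, with those that passed the limma test at an adjusted p under 0.05 in purple and the others in grey. Circles mark the members and the miRs set beside them. miR-221 (0.15) and miR-222 (-0.24) lie in the grey middle with miR-126-3p, miR-143 and miR-145, and miR-21 (2.51) is at the top.

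Among marker lists of other cell types, those of fibroblasts, leukocytes and tubules held miRs that passed, and the median mean log2 ratio was 1.16, 0.98 and -0.63, against -0.04 over all detected miRs, of which 18.5% passed as higher and 17.9% as lower. The 3 fibroblast miRs passed as higher after IRI, led by miR-199a-3p at 1.87. Their summed level was 2221 to 9835 in IRI, 1442 to 3325 in sham and 2909 in naive. miR-199a-5p reached the detection level in IRI pools only (log2 at most 7.93, in sham at most 7.09). The arm where it is high thus brought it into the test. The 3 detected of 5 leukocyte miRs passed as higher, led by miR-155, while miR-142-3p and miR-142-5p were under the detection level in all samples. The sums of the list were 1447 to 3266 in IRI, 820 to 1177 in sham and 632 in naive. None of the list reached the detection level in naive, so that sum lies near the floor. miR-223 was above background in 9 of 17 samples. It reached the detection level in IRI pools only (log2 at most 8.55, in sham at most 7.02). The arm where it is high thus brought it into the test. Of 6 detected tubule miRs, 5 passed as lower, led by miR-200a at -1.11 and miR-192 at -0.88, and miR-200c was at 0.16. With median scaling only miR-192 of them passed, with the authors' values 4 did, and the calls of the fibroblast and leukocyte lists were kept in both. With all miRs of the array tested, the fibroblast miR-199a-5p (limma adjusted p = 0.0502) and the tubule miR-429 (limma adjusted p = 0.0534) no longer passed. The sums of the tubule list of 9 were 9960 to 23525 in IRI, 17634 to 27387 in sham and 22091 in naive. The 6 detected tubule miRs were above background in all 17 samples, as were 104 of the 569 miRs on the array. The other tubule miRs were under the detection level, with miR-141 above background in 13 samples, miR-204 in 6 and miR-215 in 1. Both miRs of brain were under the detection level, while miR-1 of the muscle list passed the filter, with 8 samples above background. In the erythroid list neither detected miR passed by the mean ratio, miR-486 (-0.78) and miR-451 (-0.68), and the slope of the ratio passed downwards for both (limma adjusted p = 0.0251 and 0.0124), against 1.23% of all detected miRs. Neither slope passed with median scaling (limma adjusted p = 0.125 for both) or with all miRs of the array tested (0.0856 and 0.0814). The muscle miR-1 (0.11) and the liver miR-122 (-0.73) did not pass either, although miR-122 was at most 104 in IRI and reached 3092 in 1 sham pool. The part of these cell types in the values of the members was not tested. In pooled whole kidney, fewer cells of a type and less miR per cell cannot be told apart.

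Other miRs encoded close together gave a rough scale for the agreement of the partners, as a description. Of the 162 detected miRs 130 matched an entry of the RefSeq table, and 58 other pairs lay within 10000 bases of each other. The r of their log2 IRI/sham ratios over the 8 arrays had a median of 0.19 and ran from -0.93 to 1.00, with 14 of 58 above the 0.68 of miR-221 and miR-222. For the IRI level their median r was 0.34, and 47 of 58 were above the -0.35 of the members. For the sham level the median was 0.25, and 42 of 58 were above the -0.20 of the members. Their mean ratios differed by a median of 0.26 (log2), and 27 of 58 pairs differed by more than the 0.38 of the members. Pairs with near-identical bases, whose probes can capture each other's miR, are among the 58. Also among them are pairs with a miR such as let-7a*, which reached the detection level in the naive pool only. Its log2 level was 7.74 there and 6.50 to 6.75 in the IRI and sham pools, so its r comes from values near the floor. Other pairs hold a miR encoded at several places, such as miR-16, unlike the members. How far such pairs shift the medians was not tested.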

How the data were processed

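Kidney miRs of 17 pools, each of 3 mice, were measured on 9 arrays. For every spot the authors deposited a mean intensity from the scanner, neither background-corrected nor normalized, with a table of processed intensity values on a linear scale, for which no source used here gives the normalization. Its columns followed their own channel (r 0.981 to 0.9996 over miRs) more closely than the other channel of the array (0.834 to 0.956), so the direction of the ratio is known. No 2 samples held identical values. Nothing says that the pools of different days are more than separate pools, so p-values measure the spread over days.

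The scanner intensities were corrected with normexp (limma 3.58.1 in R 4.3.3, offset 50), the 6 spots of a miR averaged, the channels of an array normalized by loess with controls at weight 0, and the average log2 intensity per array, with that of the naive array, quantile-normalized. Above background means a spot mean over the median of the 250 empty spots by 3 median absolute deviations. miRs with 200 or more in at least 1 sample were tested with limma, either the log2 IRI/sham ratios, so that the array is a block, or the levels of an arm, with Benjamini-Hochberg adjustment over all 162 at 0.05. Single values were tested by exact sign flips (256) or exact pairings (40320), two-sided. The number of arrays limits the precision. The steps were tested on simulated data.

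The miRs named are the members, the 5 most alike by Pearson's r in the ratio and in the IRI level, the vascular miRs, and the miRs of each marker list with the largest absolute mean ratio. miR-200c, miR-142-3p, miR-142-5p, miR-141, miR-204, miR-215, miR-223, miR-199a-5p, miR-429, let-7a* and miR-16 were named after their values were seen. The members and lists were chosen with earlier results of these data known. The alternatives were the authors' values, plain subtraction of the empty median, median scaling, the median of the spots, a floor of 200, other sets of miRs, an intensity trend with robust variance, day in place of log2(day), no block, and each day left out. Levels relative to naive and relations between the arms were added as results after seeing the data. Sequences and coordinates are from RefSeq (GRCm38.p6) or the array files.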

Additional observations from a re-analysis of the deposited data

Results flagged for a closer look

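Of 7 series of 8 values looked at for a value far from the others, 1 was singled out, where chance marks about 1 in 20. The log2 IRI/sham ratio of miR-221 was 0.83 on day 5, and the nearest other day was at 0.26. On that day the sham level of miR-221 was 436, the lowest of the sham pools, and the IRI level was 774. The 6 spots gave a standard error of 0.02 for this ratio, and the authors' processed values gave 1.04. Without day 5 the mean ratio of miR-221 was 0.05 and its r with miR-222 was 0.37.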

How the results depend on the processing

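The mean ratios of both members stayed short of the threshold under all 18 alternatives, at 0.003 to 0.39 (miR-221) and -0.41 to -0.02 (miR-222), and their difference kept its sign and passed in all 14, at 0.34 to 0.46 with exact sign-flip p of 0.0156 to 0.0312. The same array, and the same harvest day, pairs the arms. Without this replicate block the mean ratios had the same values with limma adjusted p of 0.546 and 0.244, and the slopes of the ratio had 0.987 and 0.818. No call of a member changed, and the slope of the ratio was called for 2 miRs in place of 4. Median scaling moved the median mean ratio of the detected miRs from -0.04 to 0.15 and the split of calls from 30 higher and 29 lower to 30 and 9. Relative to that median miR-221 was at 0.19 in the main values and 0.24 after median scaling, and miR-222 at -0.20 and -0.17.

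With the authors' values the slope of sham miR-222 was 0.0243, the r of the ratios 0.83, and the level over naive 0.96 (miR-221, IRI), 0.87 (miR-221, sham) and 0.20 (miR-222, sham). Plain subtraction gave a slope of sham miR-222 of 0.0141. Median scaling gave slopes of the ratio of 0.137 (miR-221) and 0.0803 (miR-222), a slope of sham miR-221 of -0.0689, r of 0.89 (ratio), 0.91 (IRI) and 0.72 (sham), and levels over naive of 2.74 and 2.35 for miR-221 and 2.69 and 2.71 for miR-222 in IRI and sham. Without day 10 the r of the levels was 0.0849 (IRI) and 0.32 (sham), and that between the arms -0.12 for miR-222 and 0.60 for the gap. With single days left out the slope of the ratio ran from -0.0757 to 0.0087 for miR-221, the slope of IRI miR-221 from -0.014 to 0.101, that of sham miR-222 from -0.0299 to 0.0753, that of sham miR-221 from 0.0184 to 0.177 and the slope of the ratio of miR-222 from -0.175 to -0.0308. The r of the partners then ran from 0.37 to 0.90 (ratio), -0.50 to 0.0849 (IRI) and -0.64 to 0.32 (sham), and that between the arms from 0.34 to 0.91 (miR-221), -0.12 to 0.54 (miR-222) and 0.60 to 0.96 (gap). The cause was not tested.

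The mean ratio was called for 59 of 162 miRs, for 30 with a floor of 200, for 100 of all 569 and for 26 (without day 21) to 37 (without day 30) where a left-out day moved the count by over 1.5 times. The slope of the ratio, called for 4, was called for 8 with the authors' values, 0 with median scaling or all 569 miRs, 14 with day in place of log2(day), and 0 to 19 with a day left out. The slope after IRI, called for 14, was called for 9 with plain subtraction, 0 with median scaling, 2 with the floor or all miRs, and 2 to 22 with a day left out, and that of sham, called for 2, for 0 to 5. Neither the authors' values nor any other gave a call for a member. In median absolute deviations of the empty spots, both members were least above background in the naive pool (6.13 for miR-221, 7.91 for miR-222) and next in the IRI pool of day 10 (7.85 and 18.5).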
